A study of Mus musculus with 38 samples.

Results

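The genes described here code for centromere and kinetochore proteins, together with Cenpa, the histone variant that marks the centromere. They were chosen as a list of 37 symbols, and all 37 were found among the 23125 genes of the deposited expression table. The rule uses symbols and not measured values, but the list was drawn up with earlier results of these data known. The list holds 5 genes of CENP-A chromatin and its loading, 14 of the constitutive centromere network (CCAN), 4 of the Mis12 complex, 4 of the Ndc80 complex, 3 of the Ska complex, 5 of the outer corona and checkpoint scaffold, and 2 genes named CENP that lie outside these complexes.

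A centromere is specified by nucleosomes that carry CENP-A in place of the canonical histone. HJURP is the chaperone that places new CENP-A on DNA, and the Mis18 proteins prime the centromere for it. The CCAN sits on CENP-A chromatin throughout the cell cycle, the Mis12 complex links it to the Ndc80 complex, and the Ndc80 complex binds the spindle microtubules with help from the Ska complex. In the mouse oocyte the genome is transcriptionally silent from full growth until the embryo activates its own genes around the two-cell stage, so that changes in these proteins before that point rest on stored mRNA and on how much of it is translated.

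Sucrose gradients separated RNA on several ribosomes from lighter RNA in wild-type ICR mice. The study's methods name cycloheximide treatment of oocytes before lysis for the gradients. The 6 stages were GV oocytes (prophase arrest, from females of at least 6 weeks primed with gonadotropin), MII oocytes (metaphase of the second meiosis, after 12 h of culture in vitro), pronuclear zygotes, zygotes in their M-phase (zygote M), embryos at two-cell and the latter in their own M-phase (two-cell M). Embryos came from females primed with gonadotropin, injected with hCG and mated within the strain. Zygotes were recovered from the oviduct after 16 h and further stages were grown in culture. Both M-phase embryo groups had been held in metaphase with nocodazole (10 µM), a microtubule poison, whereas the MII oocytes had not, so M-phase and nocodazole cannot be told apart in embryos. The labels of the embryo M-phase samples name the M-phase of meiosis, while the study describes mitotic M-phases. Of 10 gradient fractions, the 5 heavier ones were pooled as the polysome sample and the 5 lighter ones as the non-polysome sample, and both were sequenced. Each stage and fraction has 3 libraries, described by the submitters as biological triplicates, which gives 36 libraries in 12 groups. Which animals gave which library is not stated.

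Values are FPKM, fragments per kilobase scaled to the mapped fragments of the library, with a smallest value of 0.01 in each library. The kilobases in these values are those of the gene locus with its introns, not of the mRNA. Once 0.01 is subtracted, 94% of the low values of the genes described here (142 of 151) lay within 0.05 of a whole number of fragments when multiplied by locus length and library depth. For all multi-exon genes the share under 5.5 fragments was 87.8% to 95.5% by library with the locus length and 7.72% to 11% with the exon length, where 10% fall in by the tolerance alone. FPKM of one gene can therefore be compared between libraries, but levels of different genes are compared below only after rescaling to the length of the mRNA. The depth found in this way was 8490000 to 26700000 fragments per library (median 21000000).

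Libraries of the two-cell M stage stood apart. Their polysome libraries held 4170000 to 6270000 fragments in genes, against 8480000 to 11500000 fragments in two-cell and 12800000 to 18800000 fragments in the earlier stages. Across tested genes, log2 values of replicate libraries correlated at 0.674 to 0.713 in two-cell M polysomes and 0.713 to 0.751 in two-cell polysomes, against 0.956 to 0.961 in zygote polysomes. Of 111 values of the 37 genes in each group (37 genes in 3 libraries), 34 were under 3 fragments in two-cell M polysomes, 26 in two-cell polysomes and 3 in MII polysomes. All 10 oocyte markers, such as Zp3 and Gdf9, had a mean of at least 1 FPKM in polysomes of GV, MII, zygote and two-cell M, and 9 of 10 in zygote M and two-cell, which does not tell oocytes from embryos. Of 8 genes of two-cell genome activation, 7 had a mean of at least 1 FPKM in two-cell polysomes, 6 in two-cell M and 2 or 3 in the earlier stages, but their summed level was 175.9 to 323.5 FPKM in GV, 124.5 to 193.9 FPKM in two-cell and 9.285 to 155.7 FPKM in two-cell M, so the sum does not set the two-cell libraries apart. The summed polysome level of the oocyte markers was 546 to 611 FPKM in the two-cell libraries and 49.5 to 206 FPKM in the two-cell M libraries. Of the 9 cumulus and granulosa markers in the table, the summed polysome level reached at most 4.76 FPKM, in an MII library, and the summed non-polysome level 23.61 FPKM in MII and 20.67 FPKM in two-cell. Summed levels of 4 globin and erythroid genes were 34.3 to 83.7 FPKM in two-cell polysomes and 24.4 to 42.5 FPKM in two-cell M polysomes, nearly all of it Hba-a1, while Hbb-bt lay at the smallest value of the table in both. In polysomes of the earlier 4 stages that sum reached at most 1.33 FPKM.

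The 3′ ends of 5 of these mRNAs are shown because polyadenylation signals and the cytoplasmic polyadenylation element (CPE) near them are the best known sequence features of translational control in maturing oocytes. Each is a window of 30 bases near the end of the 3′ UTR of the GENCODE release 21 annotation on GRCm38. Only that of Spc24 reaches the last base. The windows are written 5′ to 3′ on the mRNA strand with T for U. Capitals mark the polyadenylation signals AATAAA or ATTAAA and the CPE letters TTTTAT or TTTTAAT.
Cenpa, chr5:30674792-30674821 (+ strand): aaAATAAATAAAAATAAAaataattcctta
Mis18a, chr16:90719328-90719357 (− strand): atTTTTATaataagagAATAAAgaattcaa
Cenph, chr13:100759705-100759734 (− strand): TTTTATaacttaaggAATAAAaagAATAAA
Spc24, chr9:21755442-21755471 (− strand): actcacatacATTAAATAAAtactcttttt
Pmf1, chr3:88394146-88394175 (− strand): cccacatccgtaAATAAActtcctttccca
Within the last 150 bases, Cenpa, Spc24 and Pmf1 held no CPE letters, and Mis18a and Cenph each held 1 copy. Of the 35 genes of the list with a 3′ UTR of at least 150 bases, 8 held CPE letters in that window (22.9%), against 24.2% of all protein-coding genes of the table with such a UTR. A polyadenylation signal was present in 31 of them (88.6%), against 82.2%. These matches describe letters in a window, searched on the mRNA strand only, and AATAAA and ATTAAA can overlap. The 8 genes with CPE letters were Cenpe, Cenph, Cenpi, Cenpn, Cenpu, Mis18a, Ska2 and Spdl1. Cenpi and Ska2 lay under the FPKM minimum of the main comparisons of M-phase with the stage before it. Of the other 6 only Mis18a was called in these comparisons in polysomes. It fell from two-cell to two-cell M, where 28.1% of all genes fell.

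Per kilobase of mRNA and averaged over the 18 polysome libraries, the levels of these genes ran from the histone-fold CCAN gene Cenpx, the highest, through Pmf1 (103), Cenpm (89.0), Cenpn (64.1), Cenpa (63.6) and Mis18a (61.4) down to Cenpb (0.0472), which binds the centromeric satellite repeat and had under 3 fragments in 32 of the 36 libraries. Members of one complex lay far apart on this scale. In the Ndc80 complex, Spc24 averaged 30.5 and Ndc80 1.54. In the Mis12 complex, Pmf1 averaged 103 and Nsl1 1.19. Over the 6 polysome groups, 14 of the 37 genes had their highest mean FPKM in MII, 8 in zygote, 6 in GV, 4 in two-cell M, 3 in zygote M and 2 in two-cell. In 12 of the 37 every library of the highest group lay above every library of the other 5 stages: 5 of these were highest in MII, 4 in zygote, and 1 each in GV, zygote M and two-cell M, the last being Cenpa. The matching share over all genes is not given here, so the 12 cannot be called many or few. Among the genes tested, MII was the highest stage for 10 of the 27 tested members and for 23.65% of all 7967, and zygote for 7 of 27 and 15.38%. The highest stage was GV for 4 of 27 (23.33% of all), zygote M for 3 (11.52%), two-cell M for 3 (18.33%) and two-cell for 0 (7.795%).

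**Figure D1:**
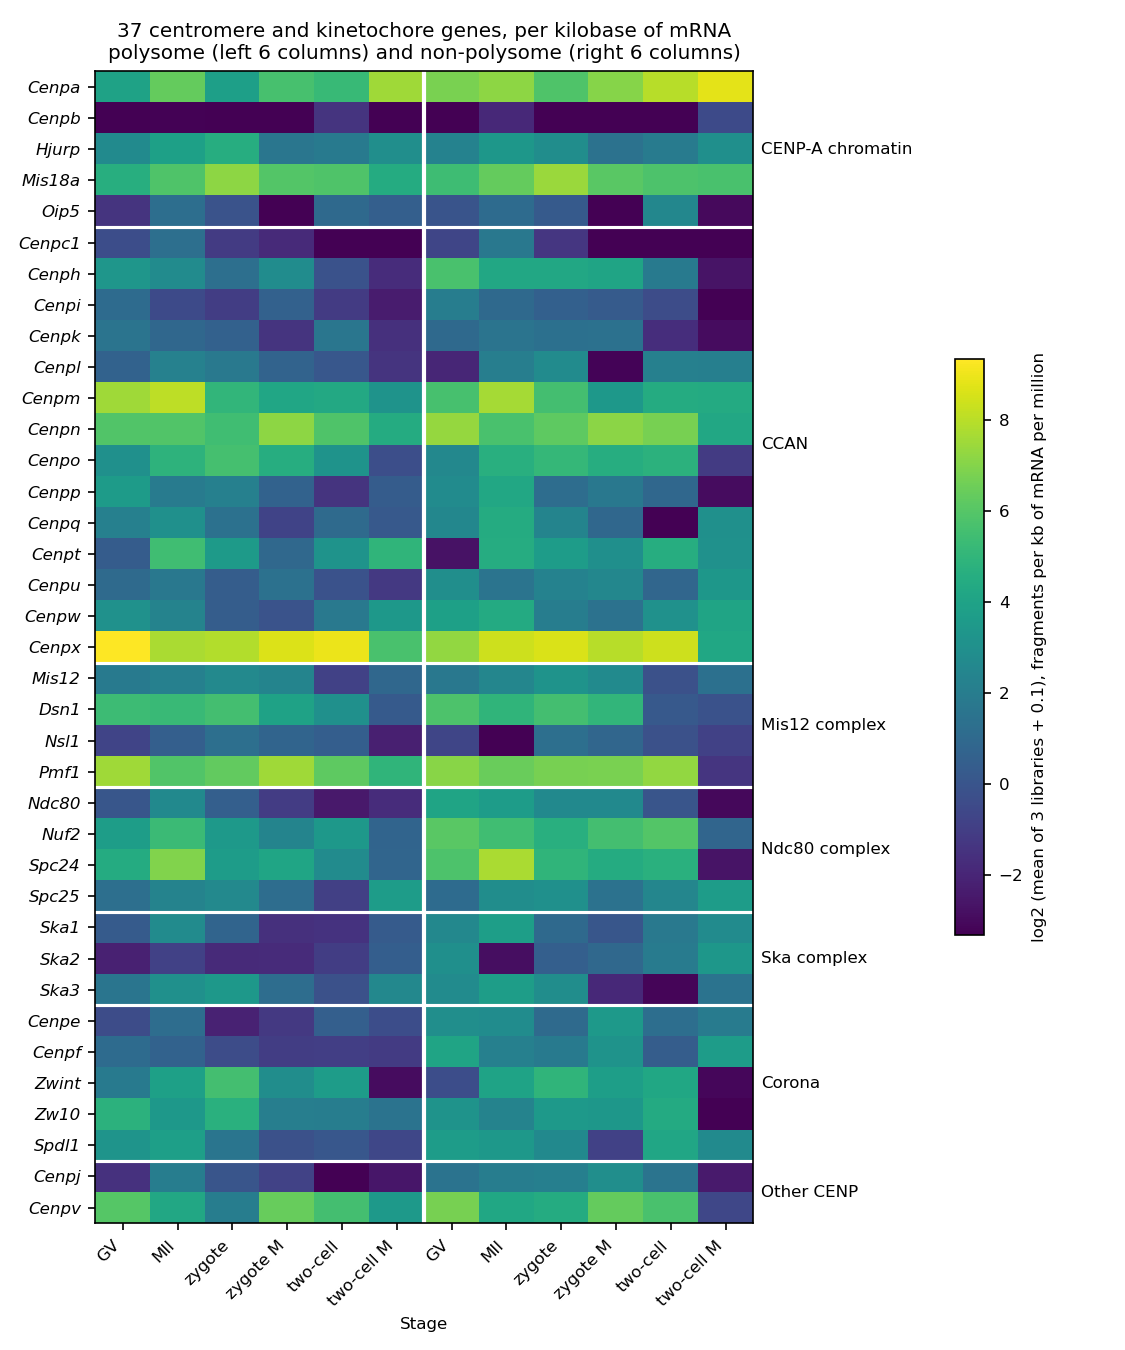
Mean level of each of the 37 genes (rows, ordered by complex) in the 6 stages of the polysome (left) and non-polysome (right) fraction, as log2 of fragments per kilobase of mRNA, scaled to depth as FPKM are, plus 0.1, each cell the mean of 3 libraries. Cenpa and Cenpx are bright across the plot, Cenpb is dark in nearly every group, and the two-cell M columns hold the most dark cells.

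The first question of the design is how polysome mRNA differs between an M-phase and the stage that precedes it. Cenpa rose 5.48-fold in MII and 5.12-fold in two-cell M, calls that held under every alternative, and 3.45-fold in zygote M, a call at the threshold that held in 4 of 13 alternatives and in none that left out a library. No other gene of the list was called in more than 2 of these comparisons. Tests were made with limma on log2 FPKM for the 27 genes of the list that reached a geometric mean of 0.1 FPKM, out of 7967 genes that did, and a gene was called at a Benjamini-Hochberg adjusted p under 0.05 and a fold change beyond 2. In MII against GV, 1 of the 27 was called higher (Cenpa) and 0 lower, where the background over all tested genes was 3.36% higher and 2.75% lower. In zygote M against zygote, 2 of 27 were higher (Cenpa and Cenpv) and 0 lower, with a background of 3.24% and 2.51%. For the two-cell M-phase, 2 of 27 were higher (Cenpa and Spc25; 8.13% of all genes) and 9 lower (28.1% of all genes): Cenpo, Cenpv, Cenpx, Dsn1, Mis18a, Nuf2, Pmf1, Spc24 and Zwint. The shares of members called lower in the two-cell comparison (33.3%) and of all genes (28.1%) lie close together. At an unadjusted p under 0.05 the numbers of members were 5, 7 and 12 of 27, beside 17.96%, 16.2% and 44.68% of all genes.

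The direction of the typical gene in these comparisons depended on how libraries were scaled. In two-cell M against two-cell the median log2 difference was −1.25 for the 27 members and −1.17 for all tested genes, and after quantile normalization 0.36 and 0.22. Calls in that comparison were 22.4% higher among all called genes before and 49.9% after it. Of the 11 called members, Cenpa and Spc25 stayed higher and Cenpo, Cenpv, Cenpx, Mis18a and Zwint stayed lower under quantile normalization, Ska3 (higher) and Cenpn (lower) were added, and Dsn1, Nuf2, Pmf1 and Spc24 were no longer called. With only the 6 libraries of this comparison in the fit, 3 of the 11 were called, Cenpa, Cenpx and Zwint. The medians of all genes moved from 0.18 to −0.13 in MII against GV and from −0.43 to 0.0048 in zygote M against zygote, and those of the members from 0.64 to 0.63 and from −1.03 to −0.70. Quantile normalization added Cenpt and Spc24 (higher) and Pmf1 (lower) in MII against GV, and Cenph (higher) and Hjurp (lower) in zygote M against zygote. Over all 7967 genes it called 701 higher and 844 lower in MII against GV, where the main fit called 268 and 219. In zygote M against zygote it called 666 and 496, where the main fit called 258 and 200.

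**Figure D2:**
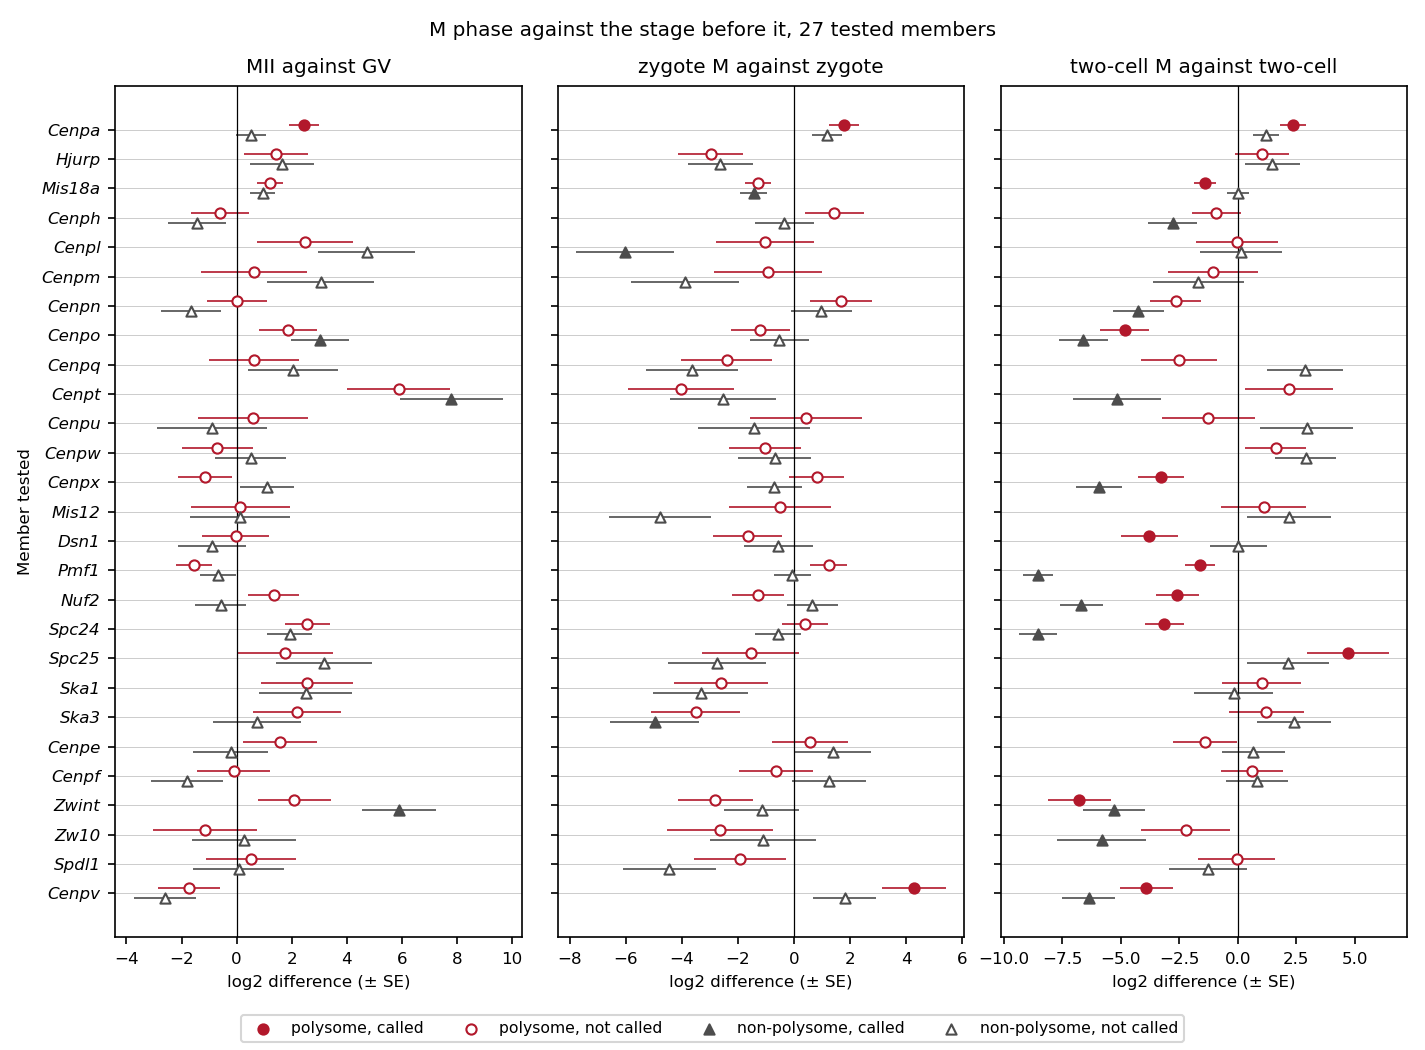
Log2 difference (horizontal axis, with its standard error) between each M-phase and the stage before it for the 27 tested genes, in polysomes (red circles) and in the non-polysome fraction (grey triangles), 3 libraries per group. Filled symbols were called, and Cenpa is the only gene with a filled red circle in all 3 panels, at 2.45, 1.79 and 2.36.

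Cenpa (chr5:30666777-30674831; gene coordinates here are those listed in the table, on GRCm38) was measured with 340 to 10759 fragments in every library. In polysomes of GV oocytes its 3 libraries read 1.80, 4.55 and 2.19 FPKM, and in MII 10.5, 19.3 and 14.6 FPKM. Zygotes read 2.49, 2.68 and 2.61 FPKM, and zygote M 10.8, 6.96 and 9.52 FPKM. Two-cell embryos read 8.67, 3.66 and 7.43 FPKM, and two-cell M 47.1, 33.7 and 19.9 FPKM. All 3 libraries of each M-phase were above all 3 libraries of the stage before it. The group means were 2.85 ± 1.49 (SD, n = 3) in GV, 14.8 ± 4.41 in MII, 2.59 ± 0.0977 in zygote, 9.08 ± 1.94 in zygote M, 6.59 ± 2.61 in two-cell and 33.6 ± 13.6 FPKM in two-cell M. The log2 difference was 2.45 (SE 0.54, limma adjusted p = 0.00422) in MII against GV, 1.79 (SE 0.54, adjusted p = 0.0489) in zygote M against zygote and 2.36 (SE 0.54, adjusted p = 0.00128) for the two-cell M-phase. The first and the last were called under every alternative tried, with adjusted p up to 0.0355 and 0.0292. The zygote M call lay at the threshold and was lost when any 1 of its 6 libraries was left out (log2 1.65 to 1.97, adjusted p 0.0773 to 0.162), without the filter on low values (adjusted p = 0.0566), with the replicate letter as a block (0.143) and on rebuilt fragments (0.0802). It held with 0.1 or 1 added to each FPKM, with quantile normalization and with only the groups compared.

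Outside the polysomes Cenpa was not called in any of the 3 comparisons. Its non-polysome libraries read 27.1, 10.5 and 22.4 FPKM in GV and 24.9, 24.4 and 31.0 FPKM in MII. Zygotes read 13.04, 10.4 and 8.37 FPKM and zygote M 24.6, 24.4 and 22.6 FPKM. Two-cell embryos read 60.3, 11.2 and 63.9 FPKM and two-cell M 85.3, 80.3 and 78.0 FPKM. The groups overlapped in MII against GV and did not overlap in the embryo comparisons, with 1 two-cell library far below the other 2. Cenpa differed by 0.52 on the log2 scale in MII (adjusted p = 0.569). In zygote M it differed by 1.19 (adjusted p = 0.182), and from two-cell to two-cell M by 1.21 (adjusted p = 0.0845). The polysome change exceeded the non-polysome change by 1.94 (SE 0.77, limma adjusted p = 0.491) in MII, 0.59 (SE 0.77) in zygote M and 1.14 (SE 0.77) in two-cell M, and none of these differences passed the test.

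At every stage all 3 polysome libraries of Cenpa were below all 3 non-polysome libraries. The log2 ratio of polysome to non-polysome FPKM was −2.82 in GV (SE 0.54, adjusted p = 0.00193), −0.89 in MII, −2.01 in zygote (adjusted p = 0.0637), −1.42 in zygote M, −2.50 in two-cell (adjusted p = 0.00231) and −1.36 in two-cell M, and only those of GV and two-cell were called, with that of zygote called as well after quantile normalization. Each library is scaled to its own total, so these ratios order genes within a stage and are not the share of Cenpa mRNA on polysomes. In these bulk samples a smaller number of contributing cells and less RNA per cell cannot be told apart either. In polysomes the order of Cenpa means was zygote, GV, two-cell, zygote M, MII and two-cell M. GV and zygote (log2 0.02, SE 0.54), GV and two-cell (−1.24, adjusted p = 0.119), MII and zygote M (0.69, adjusted p = 0.514) and MII and two-cell M (−1.14, adjusted p = 0.0785) did not differ at the threshold, though after quantile normalization Cenpa was called lower in GV than in two-cell, and its MII level was called below that of two-cell M.

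**Figure D3:**
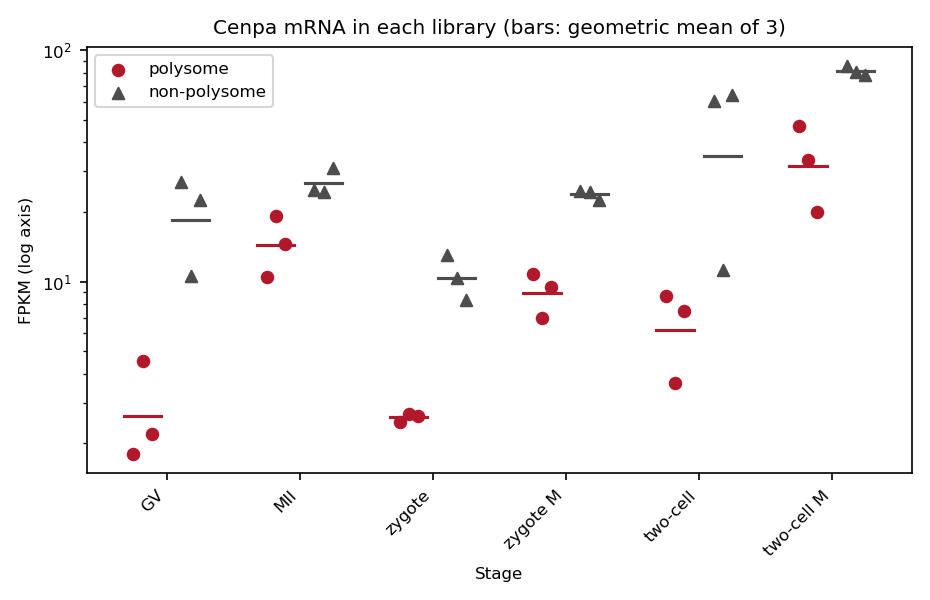
FPKM of Cenpa (log axis) in each of the 36 libraries by stage, polysome libraries as red circles and non-polysome libraries as grey triangles, with bars at the geometric mean of 3. Red circles of MII, zygote M and two-cell M lie above those of the stage before, and at each stage the triangles lie above the circles.

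Of the genes that load CENP-A, Mis18a and Hjurp had their highest polysome levels in zygotes. Mis18a (chr16:90719312-90727405), a subunit of the Mis18 complex, read 21.6, 27.02 and 23.8 FPKM in zygote polysomes. GV read 2.96, 4.25 and 4.75 FPKM, MII 8.38, 13.7 and 6.26 FPKM, zygote M 12.2, 8.40 and 9.75 FPKM, two-cell 8.17, 6.81 and 13.3 FPKM and two-cell M 4.93, 2.69 and 3.11 FPKM. All zygote libraries lay above all libraries of the other 5 stages. Mis18a fell in two-cell M against two-cell (log2 −1.39, SE 0.47, adjusted p = 0.0226) and was lower in GV than in zygote (log2 −2.62, SE 0.47, adjusted p = 4.65e-04). The two-cell M call was lost without two-cell polysome library C (log2 −1.11, adjusted p = 0.112) and without two-cell M polysome library B (−1.21, 0.079). In MII against GV (1.20, adjusted p = 0.151) and zygote M against zygote (−1.27, adjusted p = 0.13) it was not called.

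Hjurp (chr1:88262471-88277634), the CENP-A chaperone, read 8.50, 7.77 and 6.58 FPKM in zygote polysomes. The zygote M libraries read 0.839, 0.955 and 1.14 FPKM, all below the zygotes (log2 −2.96, SE 1.16, adjusted p = 0.155, not called, but called after quantile normalization). GV read 2.38, 0.725 and 3.17 FPKM and MII 4.65, 5.34 and 4.21 FPKM, which do not overlap and were not called. Two-cell and two-cell M overlapped, at 0.507 to 2.25 and 0.614 to 4.11 FPKM. Oip5, the Mis18-beta subunit, and Cenpb stayed under the minimum for testing. Oip5 had no fragment in any of the 3 zygote M polysome libraries and 42 to 66 fragments in those of MII.

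In the CCAN, the network that bridges CENP-A chromatin and the outer kinetochore, 10 of the 14 genes were tested and 2 of them were called in a polysome M-phase comparison, both lower in two-cell M, where 28.1% of all genes were lower. Cenpo (chr12:4196004-4234295) read 1.03, 0.423 and 1.63 FPKM in two-cell and 0.01, 0.249 and 0.0123 FPKM in two-cell M, which are 0, 132 and 1 fragments (log2 −4.83, SE 1.05, adjusted p = 7.27e-04). Its zygote libraries were the highest of all polysome libraries, at 5.17, 5.40 and 5.71 FPKM. Cenpx (chr11:120710942-120713739) read 78.2, 160 and 85.1 FPKM in two-cell and 12.97, 6.19 and 14.01 FPKM in two-cell M (log2 −3.29, SE 0.98, adjusted p = 0.0101), with 249 to 705 fragments in the lower group. Libraries of the 2 groups did not overlap for either gene, and neither call was lost on leaving out a library. With 1 FPKM added, the difference of Cenpo shrank to −0.86 and was no longer beyond 2-fold. Cenpx also spread widely in GV polysomes, at 104, 281 and 33.2 FPKM.

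Other CCAN genes varied between stages without a call against the preceding stage. Cenpm (chr15:82233779-82244748) was high in oocyte polysomes, with 26.4, 22.6 and 11.99 FPKM in GV and 31.4, 29.04 and 28.3 FPKM in MII, and read 0.497 to 4.06 FPKM in every later polysome library. Cenpt (chr8:105844673-105853279), a histone-fold protein that recruits the Ndc80 complex, read 0.454, 0.0272 and 0.296 FPKM in GV and 9.71, 8.07 and 9.52 FPKM in MII (log2 5.88, SE 1.88, adjusted p = 0.0607). The groups do not overlap, yet the difference missed the threshold, and it was called after quantile normalization. Cenpn (chr8:116921730-116941508), which reads the CENP-A nucleosome, was highest in zygote M at 14.4, 8.45 and 15.6 FPKM, against 3.39, 3.98 and 4.28 FPKM in zygote, and read 5.05, 5.21 and 5.08 FPKM in two-cell and 3.19, 0.0626 and 2.71 FPKM in two-cell M (log2 −2.65, adjusted p = 0.059). Cenpw, the partner of Cenpt, read 0.421 to 1.39 FPKM in two-cell and 1.30 to 4.76 FPKM in two-cell M, which overlap. Cenph was highest in GV at 0.390 to 1.23 FPKM and lay at 0.0143 to 0.0480 FPKM in two-cell M. Cenpl, Cenpq and Cenpu stayed at or under 2.32 FPKM in every polysome library.

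In the Mis12 complex, 3 of 4 genes were tested and 2 were called, both lower in two-cell M, where 28.1% of all genes were lower. Whether the count differs from that share was not tested. Dsn1 (chr2:156995265-157007155) read 2.79, 1.55 and 1.11 FPKM in two-cell and 0.628, 0.0392 and 0.0781 FPKM in two-cell M, or 143, 5 and 9 fragments (log2 −3.77, SE 1.23, adjusted p = 0.0182). Oocytes and zygotes read higher, at 5.55 to 13.5 FPKM in GV, 7.53 to 9.93 FPKM in MII and 8.38 to 11.4 FPKM in zygote. The call was lost without two-cell library A (adjusted p = 0.0676) or two-cell M library B (0.102) or C (0.0555). Pmf1 (chr3:88394143-88410332) read 4.63, 5.81 and 3.10 FPKM in two-cell and 0.461, 1.76 and 3.52 FPKM in two-cell M, groups that overlap (log2 −1.62, SE 0.65, adjusted p = 0.0497). Leaving out any library but two-cell M library C lost this call, and without two-cell M library A the difference was −0.81 (adjusted p = 0.353). Pmf1 was also high in zygote M, at 11.8, 12.1 and 11.1 FPKM against 4.82, 4.56 and 5.38 FPKM in zygote, without a call. Mis12 itself read 0.0299 to 1.49 FPKM in polysomes of the 2 two-cell groups and 0.693 to 2.91 FPKM in those of the 4 earlier stages, ranges that overlap.

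In the Ndc80 complex, which forms the microtubule attachment, members were called in both directions, 1 of 3 tested genes higher and 2 lower beside 8.13% and 28.1% of all genes. Spc25 (chr2:69193895-69206195) rose from two-cell to two-cell M, while its partner Spc24 and Nuf2 fell. Spc25 read 0.0140, 0.0216 and 0.116 FPKM in two-cell and 0.905, 2.504 and 0.274 FPKM in two-cell M, which are 1, 3 and 25 against 214, 442 and 36 fragments (log2 4.70, SE 1.74, adjusted p = 0.0354). Its polysome libraries of MII (0.443 to 0.532 FPKM) and zygote (0.558 to 0.632 FPKM) were close to each other. Spc24 (chr9:21755442-21760304) read 2.67, 1.47 and 1.68 FPKM in two-cell and 0.0312, 0.281 and 1.12 FPKM in two-cell M, or 2, 19 and 60 fragments (log2 −3.13, SE 0.82, adjusted p = 0.00398). It stood out in MII, at 36.5, 35.3 and 31.4 FPKM against 7.12, 7.69 and 3.65 FPKM in GV, a difference that missed the threshold (log2 2.56, SE 0.82, adjusted p = 0.0633). Nuf2 (chr1:169497934-169531465) read 0.377, 1.22 and 0.748 FPKM in two-cell and 0.180, 0.0887 and 0.101 FPKM in two-cell M (log2 −2.58, SE 0.92, adjusted p = 0.0298).

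For these genes of the Ndc80 complex the two-cell and two-cell M libraries do not overlap. The Spc25 call was lost without two-cell library A (adjusted p = 0.12) or B (0.0928) or two-cell M library A (0.0776) or B (0.132). The Nuf2 call was lost without two-cell library B (0.112) or C (0.0687) or two-cell M library B (0.0845) or C (0.0642), and that of Spc24 without two-cell M library A (log2 −1.74, adjusted p = 0.0638). With 1 FPKM added, the difference of Spc25 was 0.96, under 2-fold, and that of Nuf2 −0.64 (adjusted p = 0.2), and neither was called. Ndc80 itself (geometric mean 0.0977 FPKM) lay just under the minimum for testing and Cenpl (0.101) just above it. Ndc80 had 128 to 570 fragments in MII polysomes, 26 to 61 in GV and 0 to 9 in two-cell.

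Of the Ska complex, which steadies microtubule attachment, Ska1 and Ska3 were tested and neither was called in polysomes. Ska1 was highest in MII, at 2.18, 1.19 and 0.888 FPKM, clear of the other 5 stages, and lay at 0.0364 to 0.0858 FPKM in zygote M. Ska3 read 0.958 to 1.47 FPKM in zygote and 0.01 to 0.545 FPKM in zygote M (log2 −3.50, adjusted p = 0.256). Ska2 had under 3 fragments in 13 of the 36 libraries.

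Among corona and scaffold proteins, all 5 were tested. In the M-phase comparisons in polysomes 1 of them, Zwint, which anchors the checkpoint complex that recruits dynein, was called, lower in the two-cell M-phase as were 28.1% of all genes. Zwint (chr10:72654845-72674965) read 5.61, 6.70 and 6.28 FPKM in zygote, above all other polysome libraries. In two-cell it read 2.503, 1.69 and 0.853 FPKM, and in two-cell M 0.0151, 0.01 and 0.0190 FPKM, which are 2, 0 and 2 fragments against 1027, 712 and 324. The fitted log2 difference was −6.76 (SE 1.34, limma adjusted p = 2.93e-04), in the main fit the largest fall of the list in polysomes. Its size and rank depend on the smallest value of the table: with 0.1 added it was −3.84 and with 1 added −1.35, each still called. With 1 added Cenpx fell further, by −3.17. Zw10, a subunit of that checkpoint complex, read 1.51 to 5.86 FPKM in GV, 2.72 to 3.64 FPKM in zygote and 0.3603 to 0.638 FPKM in zygote M, and was not called. Cenpf, a large corona protein, stayed at or under 0.985 FPKM in polysomes, and Cenpe, the kinetochore kinesin, at or under 0.398 FPKM. Spdl1, the dynein adaptor, ranged from 0.01 to 3.08 FPKM.

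Of the genes outside these complexes, Cenpv (chr11:62524946-62539262), a protein of pericentromeric heterochromatin, moved in opposite directions in the 2 embryo M-phases. It read 0.312, 0.218 and 0.355 FPKM in zygote and 6.04, 8.26 and 3.64 FPKM in zygote M (log2 4.29, SE 1.13, adjusted p = 0.0178). In two-cell it read 3.82, 4.07 and 2.36 FPKM and in two-cell M 0.01, 0.582 and 1.86 FPKM (log2 −3.91, SE 1.13, adjusted p = 0.00795). GV read 4.51, 5.10 and 4.36 FPKM and MII 1.38, 1.503 and 1.33 FPKM, which do not overlap and were not called. The zygote M rise was lost without zygote library B (adjusted p = 0.0549) or C (0.0845) or zygote M library A (0.0616) or B (0.085), and the two-cell M fall without two-cell M library A (log2 −1.67, adjusted p = 0.134). Cenpj, a centriole protein, lay under the FPKM minimum for testing, and had 125 to 597 fragments in MII polysomes and 20 to 35 in GV. On rebuilt fragments that difference was not called (log2 3.70, SE 1.70, limma adjusted p = 0.347).

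**Figure D4:**
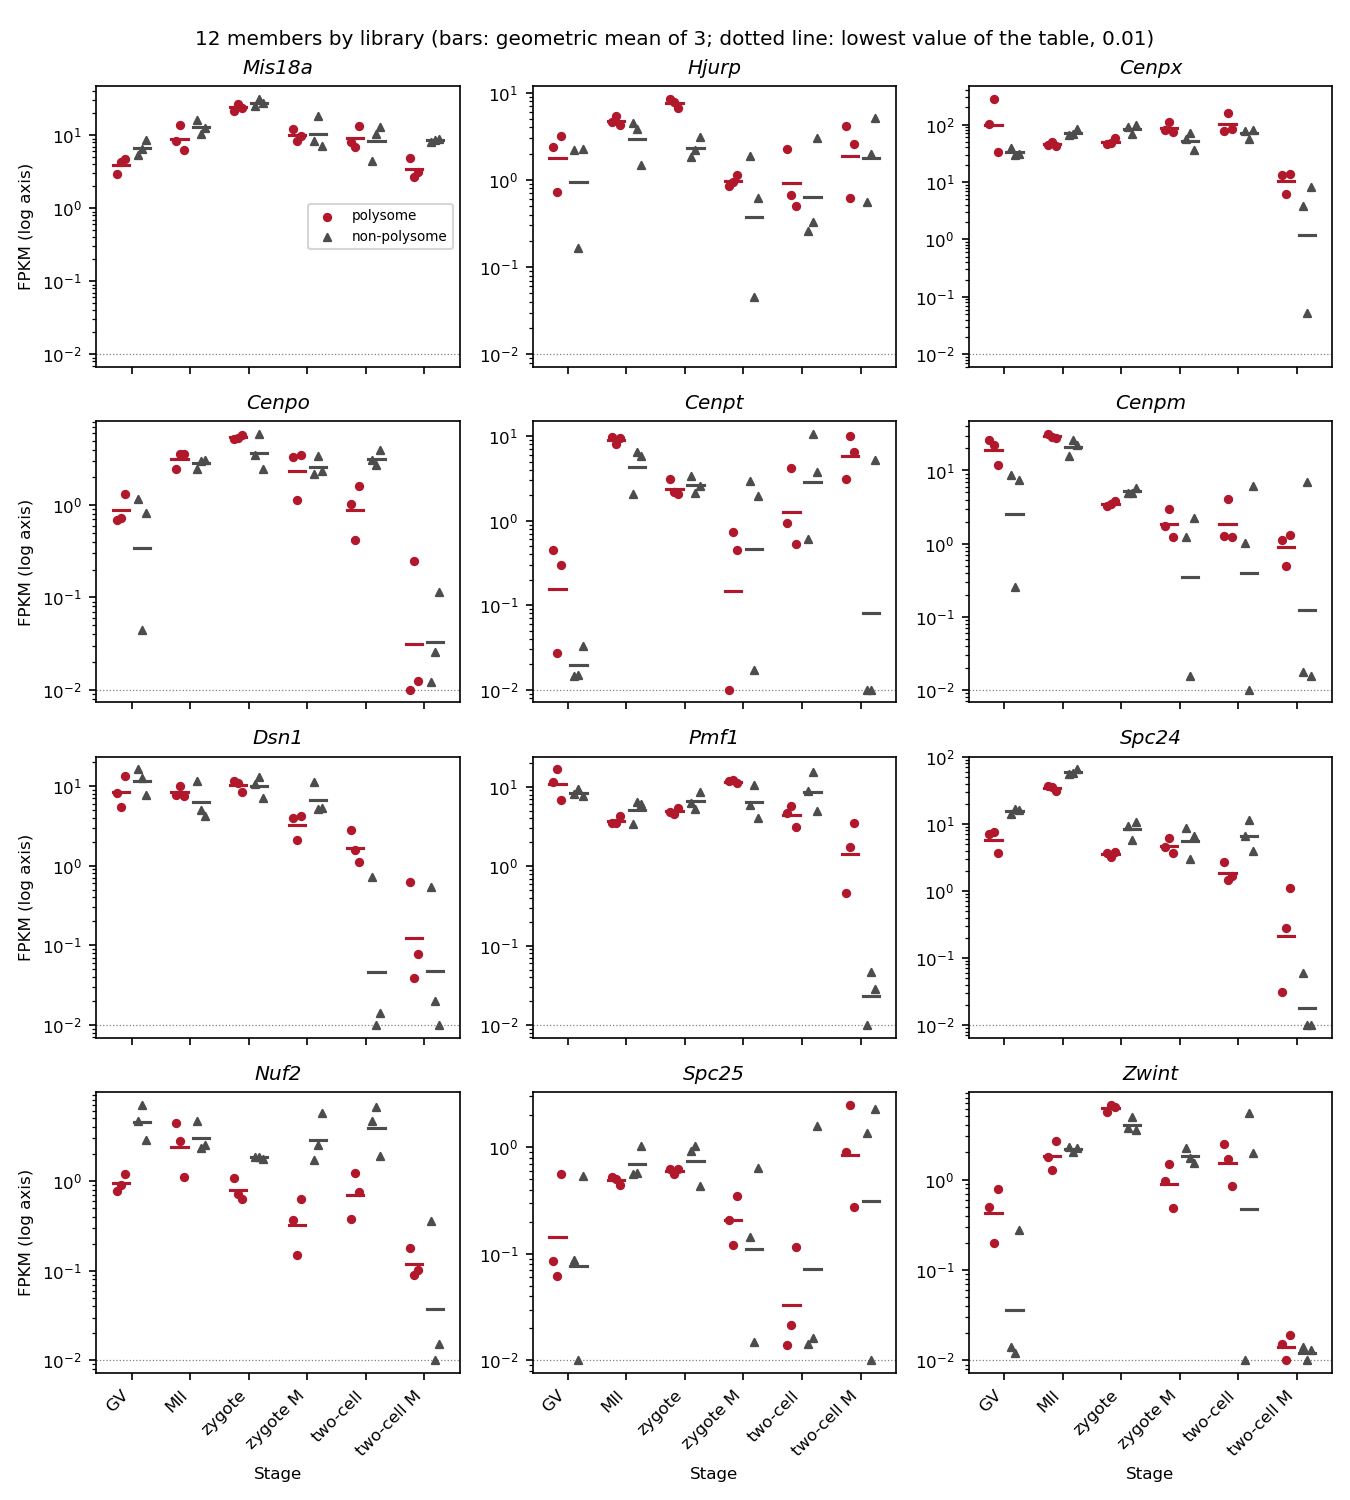
FPKM (log axis) of 12 of the genes in each library by stage, polysome as red circles and non-polysome as grey triangles, bars at the geometric mean of 3, dotted line at the smallest value of the table. Mis18a, Hjurp, Cenpo and Zwint are highest in zygote polysomes, Spc24, Cenpm and Cenpt in MII, and Zwint lies on the dotted line in two-cell M.

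The falls in two-cell M polysomes go with other differences of those libraries, given above: fewer fragments in genes, lower correlation of replicates, more values under 3 fragments, and summed oocyte markers of 49.5 to 206 FPKM against 546 to 611 FPKM. Their part in the falls was not tested. Cenpa and Spc25 were higher in the same libraries.

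The same comparisons were made outside the polysomes. In MII against GV, 3 of 27 were higher (Cenpo, Cenpt and Zwint; 13.5% of all genes) and 0 lower (3.14%). Quantile normalization gave 2 higher (Cenpt and Zwint) and 3 lower (Cenpf, Cenpn and Cenpv). Calls over all genes moved from 81.1% to 49.3% higher, with 1046 higher and 1075 lower after it. In zygote M against zygote, 0 were higher (1.05%) and 3 lower (Cenpl, Mis18a and Ska3; 9.36%). After quantile normalization none of these was called and 2 others, Cenpe and Cenpv, were called higher. Calls over all genes moved from 10.1% to 54.3% higher, with 601 higher and 505 lower after it. In the two-cell M-phase comparison 0 were higher (8.17%) and 11 lower (28.0%): Cenph, Cenpn, Cenpo, Cenpt, Cenpv, Cenpx, Nuf2, Pmf1, Spc24, Zw10 and Zwint. Of these, 7 were also called lower in polysomes: Cenpo, Cenpv, Cenpx, Nuf2, Pmf1, Spc24 and Zwint. The matching overlap over all genes is not given here, so the 7 cannot be called many or few. After quantile normalization 1 was higher (Cenpw) and 6 lower (Cenpo, Cenpv, Cenpx, Nuf2, Pmf1 and Spc24), beside 940 and 1081 of all 7967 genes. With only the compared groups in the fit 3 of the 11 were called, Cenpo, Pmf1 and Spc24. The non-polysome libraries of these stages differed in other measures too: fragments in genes were 8030000 to 12200000 in two-cell and 4360000 to 8230000 in two-cell M, summed oocyte markers 413.8 to 486.7 and 14.63 to 128.6 FPKM, and summed globin and erythroid genes 99.65 to 162.2 and 0.04 to 52.55 FPKM. Their part in the falls was not tested. Cenpt went from 1, 1 and 4 fragments in GV to 433, 1493 and 1182 in MII (log2 7.80, SE 1.88, adjusted p = 0.00443), and Zwint from 2, 1 and 110 to 1123, 1083 and 1030 fragments (log2 5.91, adjusted p = 0.00281). Over the alternatives the log2 difference ran from 2.41 to 8.6 for Cenpt and from 1.54 to 7.38 for Zwint, always called. Mis18a read 24.8, 31.6 and 27.8 FPKM in zygote and 8.29, 18.4 and 7.11 FPKM in zygote M (log2 −1.44, adjusted p = 0.0482), a call lost in 5 of 6 fits that left out a library. The Cenpo call in MII was lost without GV library B (log2 1.54, adjusted p = 0.405) or any of the MII libraries (0.0898 to 0.115). Among the falls in two-cell M, Cenph was lost without two-cell library A (adjusted p = 0.329) or C (0.0992) or two-cell M library B (0.0981) or C (0.0736). Cenpt was lost without two-cell library B (0.121) or C (0.0765) or two-cell M library A (0.174) or B (0.169), and Zw10 without two-cell library A (0.0924) or B (0.105). Zw10 had no fragment in any two-cell M non-polysome library and 1406, 1418 and 1 in two-cell. Under quantile normalization the sign of Cenph turned in two-cell M (from −2.78 to 0.28, adjusted p = 0.863).

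Whether an M-phase change differed between fractions was tested as the polysome change minus the non-polysome change. Only Pmf1 and Spc24 were called, both in the two-cell comparison, where each fell less in polysomes than outside them. Of 27 genes, 2 were called higher (3.20% of all genes) and 0 lower (2.55%), with 7 at an unadjusted p under 0.05 (19.24%). In MII against GV, limma called 0 of 27 (0.113% higher and 0.0502% lower of all genes). There 1 member, Cenpa, had an unadjusted p under 0.05 (7.368% of all genes). In zygote M against zygote it called 0 (0.289% and 0%), with 0 at an unadjusted p under 0.05 (7.519%). Pmf1 in the non-polysome fraction read 8.84, 15.2 and 4.96 FPKM in two-cell and 0.01, 0.0464 and 0.0280 FPKM in two-cell M, or 0, 5 and 5 fragments, a log2 difference of −8.54 against −1.62 in polysomes (difference 6.92, SE 0.91, adjusted p = 8.44e-06). Spc24 outside polysomes read 6.69, 11.3 and 3.95 FPKM in two-cell and 0.0605, 0.01 and 0.01 FPKM in two-cell M, or 3, 0 and 0 fragments, a log2 difference of −8.52 against −3.13 (difference 5.39, SE 1.16, adjusted p = 0.00417). Both fits rest on values at or near the smallest value of the table. With 1 added to each FPKM the differences of the changes were 2.22 (adjusted p = 0.013) and 1.88 (adjusted p = 0.0204), and with only the 4 compared groups in the fit neither was called (adjusted p = 0.0508 and 0.366).

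Within a stage, few of these genes were called between polysome and non-polysome RNA. In GV, 0 of 27 were higher in polysomes (2.61% of all genes) and 1, Cenpa, lower (2.35%). In MII limma called 0 of 27 (0.0502% higher and 0.703% lower), with 0 at an unadjusted p under 0.05 (6.138% of all genes). In zygote it called 0 (0.0377% and 1.34%), with 4 at an unadjusted p under 0.05 (7.38%). In zygote M it called 0 (1.43% and 0.490%), with 6 at an unadjusted p under 0.05 (12.34%). In two-cell 1 was higher, Dsn1 (9.69%), and 1 lower, Cenpa (6.38%). In two-cell M, 4 were higher, Cenpt, Cenpx, Pmf1 and Spc24 (9.70%), and 0 lower (5.06%). Outside the polysomes of two-cell embryos Dsn1 had 160, 0 and 1 fragments, against 677, 386 and 251 in polysomes (log2 5.19, SE 1.23, adjusted p = 0.0048). Dsn1 and Cenpa kept these calls in each fit that left out a library, and with only the compared groups the two-cell calls were lost (adjusted p = 0.185 and 0.132). In two-cell M all 4 calls were lost with only the compared groups (adjusted p = 0.171 to 0.553), and with 1 FPKM added the Spc24 ratio fell from 3.55 to 0.46 (adjusted p = 0.47). The Cenpx ratio fell from 3.15 to 0.90 (adjusted p = 0.296) without non-polysome library B and was not called without polysome library A (0.0727) or C (0.0911). The Cenpt ratio was 6.19 (adjusted p = 0.0241), and it was not called without polysome library B (0.0665) or C (0.0624) or without non-polysome library A (0.126) or B (0.12). In GV the log2 ratios of Cenpe and Cenpf were −3.48 (adjusted p = 0.137) and −3.38 (adjusted p = 0.142), and after quantile normalization both were called lower in polysomes there, with Cenph and Nuf2. The same normalization called Cenpa and Cenph lower in zygote, and Cenpe, Cenpf and Nuf2 in zygote M. Over all genes it called 569 lower in GV, 194 in zygote and 194 in zygote M.

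**Figure D5:**
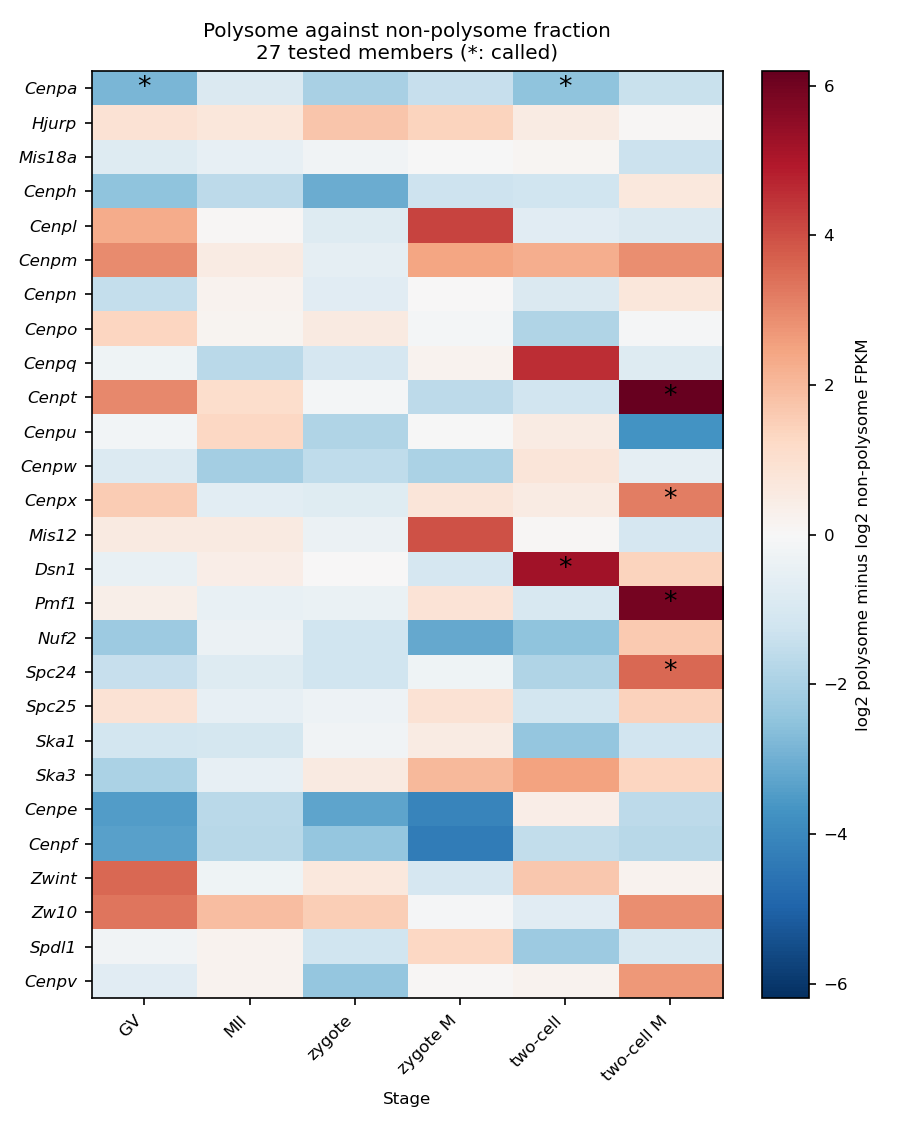
Log2 polysome minus log2 non-polysome FPKM (colour) for the 27 tested genes (rows) in the 6 stages (columns), from 3 libraries per fraction, with asterisks on called cells. The row of Cenpa is blue throughout and called in GV and two-cell, and the other called cells, Dsn1 in two-cell and Cenpt, Cenpx, Pmf1 and Spc24 in two-cell M, are red.

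Stages of the same cycle phase were also compared in polysomes. GV exceeded zygote for 1 of 27 (Cenpv, log2 4.01, adjusted p = 0.0316, lost on leaving out any 1 of the 6 libraries; 3.88% of all genes) and lay below it for 1 (Mis18a; 1.73%). After quantile normalization 3 were higher in GV (Cenph, Cenpv and Cenpw) and 4 lower (Cenpo, Cenpt, Mis18a and Zwint). GV exceeded two-cell for 1 (Cenph, log2 4.09, SE 1.05, adjusted p = 0.00735; 12.3%) and lay below it for 0 (4.39%), and the Cenph call was lost without two-cell library C (adjusted p = 0.0579). With 1 FPKM added the Cenph difference was 0.71, under 2-fold, and was not called. After quantile normalization the direction of the calls turned, with 0 higher in GV and 3 lower (Cenpa, Mis18a and Zwint). Cenph was then not called (limma adjusted p = 0.065). Among all genes 1033 were then higher in GV and 1023 lower. MII exceeded zygote M for 3 (8.95%), Cenpt (log2 5.93), Nuf2 (2.89) and Spc24 (2.87), and lay below it for 0 (3.40%), and these 3 calls were each lost in 4 of 6 fits that left out a library. After quantile normalization MII was higher for 7 (Cenpm, Cenpq, Cenpt, Nuf2, Ska1, Spc24 and Spdl1) and lower for 3 (Cenpn, Cenpv and Pmf1). Among all genes MII was then higher for 1014 and lower for 1068. MII exceeded two-cell M for 12 of 27 (45.2%) and lay below it for 0 (7.86%). The 12 were Cenph, Cenpm, Cenpn, Cenpo, Cenpq, Cenpv, Dsn1, Mis18a, Nuf2, Spc24, Spdl1 and Zwint. Without two-cell M library A the Cenpv difference went from 2.66 to 0.43 (adjusted p = 0.7), and it kept its call in 2 of 13 alternatives. Without two-cell M library B that of Cenpn went from 2.66 to 0.81 (adjusted p = 0.501), and its call was also lost without any 1 of the MII libraries (0.0591 to 0.0988). The Cenph difference turned to −0.17 after quantile normalization (adjusted p = 0.898). Cenpm kept its call in 1 of 6 fits that left out a library, and Mis18a in 4 of 6. Spc24 had the smallest adjusted p among the 12 (log2 7.33, SE 0.82, adjusted p = 4.19e-08). After quantile normalization 5 were higher (Cenpm, Cenpo, Dsn1, Spc24 and Zwint) and Cenpa, Cenpw and Spc25 were lower in MII. Among all genes 1835 were then higher in MII and 1808 lower. These comparisons share libraries with the M-phase comparisons and with each other. A stage effect over the 6 polysome groups (moderated F-test) was found for 13 of 27, against 62.9% of all genes: Cenpa, Cenph, Cenpo, Cenpt, Cenpv, Cenpw, Cenpx, Dsn1, Mis18a, Nuf2, Pmf1, Spc24 and Zwint.

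The minimum on FPKM left out 10 of the 37 genes, Cenpb, Cenpc1, Cenpi, Cenpj, Cenpk, Cenpp, Ndc80, Nsl1, Oip5 and Ska2, some of which have long loci: the locus of Cenpp spans 188763 bases. All 37 could be tested on fragments rebuilt from the locus length and scaled to the depth, among 17322 genes. In MII against GV only Cenpa was called of the 37 (log2 2.46, adjusted p = 0.0105; 1.43% of all genes higher and 0.935% lower). In zygote M against zygote limma called 0 (1.25% and 1.71%), with 7 at an unadjusted p under 0.05 and Cenpa at an adjusted p of 0.0802. In two-cell M against two-cell, Cenpa was higher (5.10%), and Cenpo, Cenpv, Cenpx, Spc24 and Zwint were lower (15.3%). None of the 10 added genes was called in these comparisons. Cenpc1, the direct reader of CENP-A nucleosomes, had no fragment in any of the 6 polysome libraries of two-cell and two-cell M, against 52 to 322 in MII.

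Other genes of the kinetochore pathway were taken from a list of 24 symbols that are not in the set above, of which 17 were tested. In MII against GV, 1 of 17 was higher (3.36% of all genes) and 0 lower (2.75%), the higher one being Spag5, a spindle and kinetochore protein (log2 5.34, SE 1.38, adjusted p = 0.016), with 0.0161, 0.01 and 0.319 FPKM in GV and 2.28, 1.43 and 1.04 FPKM in MII. In zygote M against zygote limma called 0 of the 17 (3.24% of all genes higher and 2.51% lower). For the two-cell M-phase, 1 of 17 was higher and 4 lower, beside 8.13% and 28.1% of all genes. Kif2c, a kinesin that takes microtubules apart at kinetochores, rose (log2 4.14, SE 1.28, adjusted p = 0.0125). The survivin gene Birc5 read 48.0, 51.1 and 52.0 FPKM in two-cell and 8.29, 14.3 and 15.9 FPKM in two-cell M (log2 −2.03, SE 0.36, adjusted p = 8.47e-05). Its partner kinase gene Aurkb (−6.09, adjusted p = 0.0175), the checkpoint kinase gene Ttk (−4.33, adjusted p = 0.00233) and Knstrn (−3.96, adjusted p = 0.00547), which works with Spag5, fell as well.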

How the data were processed

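Polysome and non-polysome RNA of 6 stages was sequenced. Per the labels and the study's methods, the authors trimmed reads with Trim Galore 0.4.1, aligned them with STAR 2.5.3a to GRCm38 and quantified genes in Partek, and they deposited FPKM. The methods name RefSeq genes, whereas the annotation columns of the table are of Ensembl style. The deposited FPKM, less 0.01, are multiples of 1 fragment over the locus length for most low values, but not for nearly all genes (81.3% to 90.4% of values under 5.5 fragments), so no count test was used. Of 38 samples, the 2 labelled zygote A had no column and were not analysed here.

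Group means of log2 FPKM were fitted over 36 libraries with limma 3.58.1 (R 4.3.3, moderated test with an intensity trend) for the 7967 genes whose geometric mean reached 0.1 FPKM. Two-sided p-values were adjusted by Benjamini-Hochberg over all genes tested, and calls required an adjusted p under 0.05 and a fold beyond 2. The fit was tested on simulated data. Tables and figures were made with Python 3.11.15, pandas 2.3.3 and matplotlib 3.10.9. Fragment numbers and depths are estimates rebuilt from locus lengths. Values by library or full statistics are given for Cenpa and for genes called in an M-phase comparison in polysomes or in the difference between fractions, filled to 20 by mean FPKM if under 12, and other genes by ranges or counts. A few others are given by value because they complete a complex, which was decided after their values were seen. The members and gene lists were chosen with earlier results of these data known. Alternatives were 0.1 or 1 FPKM added, no filter, quantile normalization, only the compared groups, a replicate block and leaving out each library. P-values measure the spread between these libraries.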

Additional observations from a re-analysis of the deposited data

Results flagged for a closer look

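The change from two-cell to two-cell M differed between the fractions for 2 of the 27 tested genes by a direct test of the difference (a limma contrast). For Pmf1 the polysome change exceeded the non-polysome change by 6.92 on the log2 scale (SE 0.91, adjusted p = 8.44e-06), and for Spc24 by 5.39 (SE 1.16, adjusted p = 0.00417). In both cases the gene fell in both fractions and the non-polysome libraries of two-cell M held at most 5 fragments. Each difference kept its call when any 1 of the 12 libraries was left out. Neither was called with only the compared groups in the fit (limma adjusted p = 0.0508 for Pmf1 and 0.366 for Spc24). With 1 added to each FPKM the differences shrank to 2.22 and 1.88 and stayed called.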

How the results depend on the processing

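Calls over all genes moved with quantile normalization, as given above. For most other settings they are not given here, so a moved count is not read as a result about the members. Counts of genes of the list called are given here where a setting moved them by over 1.5 times, and the others stayed within that. With 0.1 added to each FPKM it went from 1 to 3 in MII against GV and from 3 to 5 in the same comparison outside polysomes, from 2 to 4 in GV against zygote, from 1 to 4 in GV against two-cell, from 3 to 7 in MII against zygote M, and for polysome against non-polysome from 1 to 5 in GV, 0 to 2 in zygote, 0 to 1 in zygote M and 2 to 4 in two-cell. With 1 added the counts were 7 in MII against GV, 7 in zygote M against zygote, 9 in MII against GV outside polysomes, 7 in GV against zygote, 6 in GV against two-cell, 9 in MII against zygote M, and between fractions 6 in GV, 2 in zygote, 1 in zygote M and 5 in two-cell. Without the filter they were 1 in zygote M against zygote and 3 in GV against two-cell. After quantile normalization they were 4 in MII against GV, 4 in zygote M against zygote, 5 in MII against GV and 7 in the two-cell M-phase comparison outside polysomes, 7 in GV against zygote, 3 in GV against two-cell, 10 in MII against zygote M, between fractions 5 in GV, 2 in zygote and 3 in zygote M, and 21 with a stage effect. With only the compared groups they were 7, 12 and 3 in the M-phase comparisons in polysomes, 9 in MII against GV and 3 in the two-cell M-phase comparison outside them, 2 and 0 for the difference of changes in the zygote and two-cell M-phases, 11 in GV against zygote, 3 in GV against two-cell, 16 in MII against zygote M, between fractions 1 in MII, 10 in zygote, 2 in zygote M, 1 in two-cell, none (0) in two-cell M, and 22 with a stage effect. On fragments rebuilt from the locus length, an alternative chosen after seeing the data, they were 0 in the zygote and 6 in the two-cell M-phase comparison in polysomes, 1 in zygote M against zygote outside them, 1 in GV against zygote, 4 in GV against two-cell and 0 in MII against zygote M.

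Leaving out 1 library gave 0 to 1 called in the zygote and 6 to 11 in the two-cell M-phase comparison in polysomes, 0 to 2 in zygote M against zygote outside them, 2 to 4 for the two-cell difference of changes, 1 to 1 in GV against zygote, 0 to 1 in GV against two-cell, 0 to 2 in MII against zygote M, 7 to 14 in MII against two-cell M, and between fractions 1 to 2 in GV, 0 to 1 in zygote M and 2 to 5 in two-cell M. For single genes, 2 of 54 results turned in direction, both for Cenph after quantile normalization: 0.28 in two-cell M against two-cell outside polysomes and −0.17 in MII against two-cell M. The cause was not tested. Of the 54, 15 kept direction and call under every alternative.

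Whether libraries with the same letter share a gradient or a day is not stated. Deviations of polysome and non-polysome libraries with the same stage and letter had a mean r of 0.0756 (over 0.1 in 6 of 18 pairs). With the same stage and another letter the mean r was −0.0372 (over 0.1 in 1 of 36 pairs). A weak pairing is therefore possible, and the main fit did not take letters as pairs. With stage and letter together as a block, 9 of 9 single results between fractions kept their call. With the replicate letter as a block, the count was 1 in zygote M against zygote in polysomes and 0 outside them, and 50 of the 54 single results kept their call. Depth limits low genes, since 1 fragment moves a value at 0.01 FPKM on the log2 scale. The step is larger for a short locus in a shallow library and small for a long locus.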
